A study of Mus musculus with 8 samples.

Results

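The 4 Hox clusters of the mouse were examined in 8 lists of protected DNA positions from male germ cells. The clusters were taken as mm9 intervals: chr6:52100001-52220000 for HoxA, chr11:96050001-96240000 for HoxB, chr15:102740001-102880000 for HoxC and chr2:74490001-74610000 for HoxD. A position belonged to a cluster when its summit, the point of highest coverage, lay inside the interval. The intervals are 120, 190, 140 and 120 kb long and together held 10813 of the 37444400 positions that the 8 lists place on chromosomes 1 to 19 and X.

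Chromatin of testis cells was digested with micrococcal nuclease (MNase), which degrades DNA that no protein protects, and the protected fragments were sequenced. Cell fractions enriched for spermatocytes (cells in meiosis), round spermatids (their haploid products) and condensing spermatids (in which histones give way to transition proteins and protamines) came from wild-type (WT) mice and from mice lacking H2A.L.2, a testis-specific variant of histone H2A. Condensing spermatids gave fragments of about 130 to 170 bp, called nucleosomes here, and of about 40 to 80 bp, called small structures, which were sequenced apart. Each of the 8 groups has 1 library, the age and number of the animals are not given in the sources used here, and the identity of the enriched cells could not be checked, since the data hold no expression values. No test between groups was therefore possible, and every interval below covers counting error only. As a measure of how much regions vary, each cluster was set beside the windows of its own length on the rest of its chromosome, 4031 windows in all, and percentages of windows past a threshold refer to these.

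Hox genes encode homeodomain transcription factors that give cells of the embryo their place along the body axis. They lie side by side in 4 clusters, are transcribed in an order that follows their place in the cluster, and are kept silent by Polycomb proteins in cells that do not use them. The clusters are known for dense CpG islands and few interspersed repeats.

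The intervals hold 39 Hox genes, with 11 in HoxA, 10 in HoxB, 9 in HoxC and 9 in HoxD. Gene starts could not be placed on mm9 with the reference used here, so no value below belongs to a single gene. Promoter sequences of 22 of the 39 genes were matched by symbol in RefSeq (GRCm38.p6). Their 24 promoters, each from 250 bases before to 50 bases after the start, held a median of 14.5 CpG dinucleotides, against 7 over all 32851 promoters. At least 10 CpG were found in 70.8% of them and in 43.5% of all promoters. HoxA and HoxD supplied 9 genes each, but HoxB only 3 and HoxC 1, so these values say little of HoxB and HoxC. To show this base composition, the 250 bases before the start are given for 1 gene of each cluster, in the direction of transcription and with CpG in capitals. Hoxa5 was taken from HoxA and the genes of the fourth paralogue group from the others.
Hoxa5: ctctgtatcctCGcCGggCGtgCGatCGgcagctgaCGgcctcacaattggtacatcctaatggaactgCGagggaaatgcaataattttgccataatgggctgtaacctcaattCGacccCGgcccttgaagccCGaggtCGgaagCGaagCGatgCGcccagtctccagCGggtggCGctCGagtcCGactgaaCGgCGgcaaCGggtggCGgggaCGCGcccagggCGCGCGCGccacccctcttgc
Hoxb4: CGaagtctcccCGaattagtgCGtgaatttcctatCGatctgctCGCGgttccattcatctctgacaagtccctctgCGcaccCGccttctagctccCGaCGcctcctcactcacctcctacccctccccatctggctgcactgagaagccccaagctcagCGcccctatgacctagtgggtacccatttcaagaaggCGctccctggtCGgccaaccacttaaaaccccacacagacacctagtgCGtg
Hoxc4: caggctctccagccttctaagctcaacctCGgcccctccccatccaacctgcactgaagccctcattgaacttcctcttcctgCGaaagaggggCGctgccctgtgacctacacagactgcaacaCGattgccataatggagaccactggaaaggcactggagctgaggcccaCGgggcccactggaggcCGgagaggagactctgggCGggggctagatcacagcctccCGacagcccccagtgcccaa
Hoxd4: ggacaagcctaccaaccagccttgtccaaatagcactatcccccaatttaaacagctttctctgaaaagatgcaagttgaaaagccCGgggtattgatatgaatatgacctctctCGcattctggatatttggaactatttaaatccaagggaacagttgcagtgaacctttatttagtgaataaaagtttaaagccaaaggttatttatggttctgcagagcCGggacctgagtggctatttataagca
The stretches hold 28, 14, 8 and 3 CpG. The Hoxa5 stretch is CpG-dense through most of its length, whereas that of Hoxd4 is AT-rich, with a GC content of 40.4%. The whole Hoxd4 promoter held 4 CpG, the lowest value among the 24, while those of the other HoxD genes held 4 to 37. Hoxd4 is therefore not typical of HoxD.

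Small structures were counted first. In WT condensing spermatids HoxA held 513 small structures, or 4.28 per kb against 2.01 per kb on the rest of chromosome 6, a ratio of 2.13 (95% interval 1.95 to 2.32). HoxC held 574 (ratio 1.85, 1.7 to 2.01), HoxD 472 (1.76, 1.6 to 1.92) and HoxB 814 (1.49, 1.39 to 1.6). Small structures were thus denser in all 4 clusters than on the rest of their chromosomes. In the H2A.L.2-less list the ratios were 2.52, 1.65, 2 and 1.9 for HoxA, HoxB, HoxC and HoxD, from 458, 712, 483 and 393 positions. Of these 8 values 7 exceeded 1.5, which 24.8% of windows did in the WT list and 24.9% in the other, so richness in small structures at this level was common among windows. HoxA stood highest of the 4, above 93.2% of the windows on chromosome 6 in WT and above 96% of them without H2A.L.2.

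Nucleosome positions were counted in the same intervals before the condensing stage. In WT spermatocytes HoxA held 224 positions (ratio to the rest of the chromosome 0.898, 95% interval 0.785 to 1.02), HoxB 451 (0.912), HoxC 331 (1.09) and HoxD 200 (0.755, 0.654 to 0.868). In WT round spermatids the counts were 249 (0.971), 490 (0.992), 346 (1.1) and 232 (0.865). HoxD had the lowest and HoxC the highest ratio in both lists. Pooled over the clusters, WT round spermatid density was 2.31 per kb, against 2.29 outside. None of these 8 values was lower past 1.5-fold, a level that 21.4% of windows reached in WT spermatocytes and 22.1% in WT round spermatids.

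**Figure D1:**
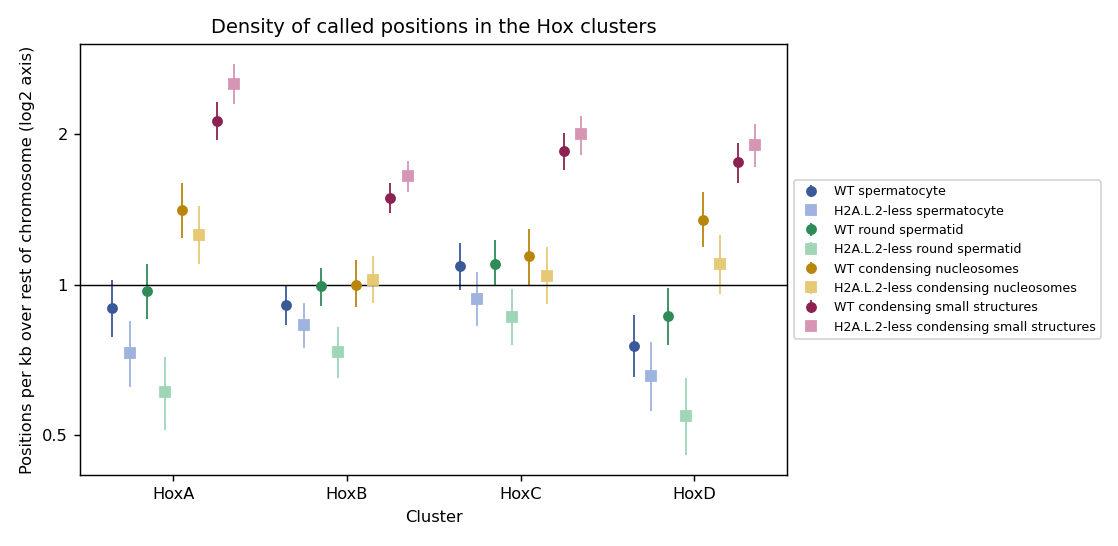
Positions per kb in each Hox cluster divided by positions per kb on the rest of its chromosome (vertical axis, log2 scale), for the 8 lists. Circles are WT, squares H2A.L.2-less, and bars the 95% counting intervals. Small structures lie between 1.49 and 2.52 in all 4 clusters, and H2A.L.2-less round spermatids have the lowest value in each.

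The clusters held fewer nucleosomes of the earlier stages than windows rich in small structures. Against the rest of the chromosome, however, only HoxD had an interval below 1 in both WT lists. Across windows of the 4 chromosomes, those rich in WT small structures were also rich in nucleosomes. Of the 4031 windows, 1001 exceeded 1.5 in WT small structures, and their median density ratio was 1.42 in WT spermatocytes, 1.45 in WT round spermatids and 1.43 in WT condensing nucleosomes. This set of windows was chosen after the data had been seen. HoxA, HoxB and HoxD had a lower ratio than all 1001 of these windows in both WT spermatocytes and WT round spermatids. HoxC was lower than all but 14 of them in spermatocytes and all but 7 in round spermatids. HoxB itself, at 1.49, lay just under the level that defined the set. Lists were also cut to the length of the shortest, the 3779744 positions with the highest summits, and 1069 windows were then in the set. None of them was lower than HoxA or HoxD in either WT list. None was lower than HoxB in round spermatids and 3 were in spermatocytes, while 6 and 16 were lower than HoxC. Only 42% of cluster summits reached the list median in WT spermatocytes and 40.3% in WT round spermatids. The cut therefore took a larger part of the cluster positions and is no independent check.

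**Figure D2:**
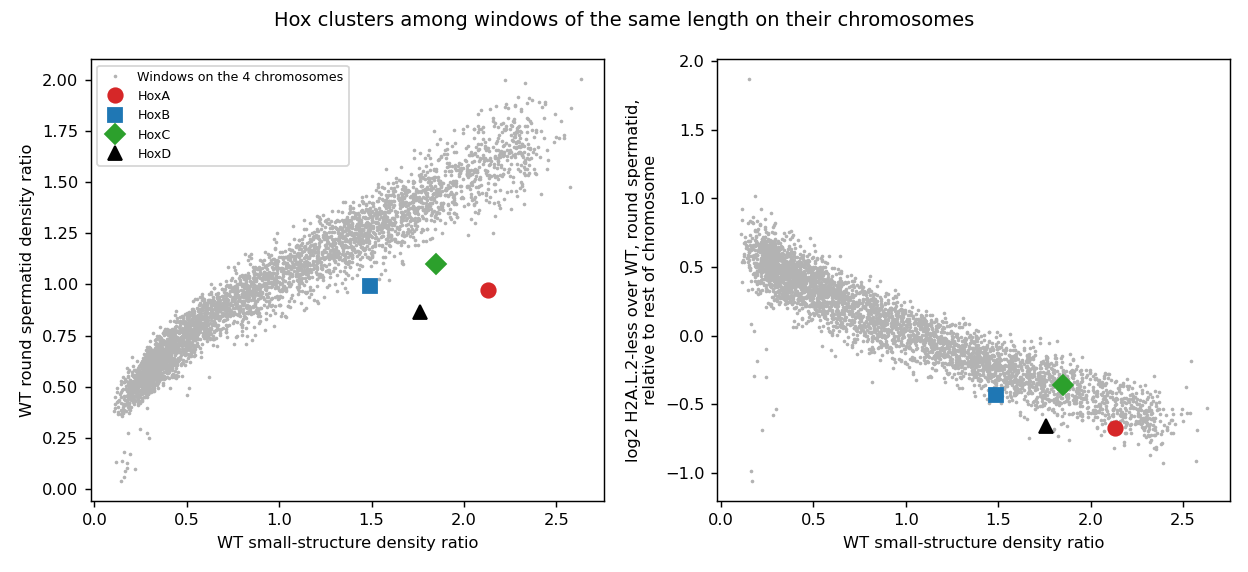
Each grey point is 1 of 4031 windows of a cluster's length; the horizontal axis gives the WT small-structure density ratio and the vertical axes the WT round spermatid density ratio (left) and the log2 ratio of H2A.L.2-less to WT density in round spermatids relative to the rest of the chromosome (right). On the left the 4 Hox clusters lie under the band of windows, at 0.865 to 1.1, whereas on the right HoxC lies within the band and HoxA and HoxD lie low.

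In the WT list of condensing nucleosomes HoxA and HoxD had higher ratios than HoxB and HoxC, though the HoxC interval overlapped those of HoxA and HoxD. WT condensing nucleosomes gave 250 positions in HoxA (ratio 1.41, 95% interval 1.24 to 1.6) and 253 in HoxD (1.35, 1.19 to 1.53), against 338 in HoxB (1, 0.901 to 1.12) and 248 in HoxC (1.14, 1 to 1.29). The HoxA and HoxD values were near the median of the windows rich in small structures (1.43), with 466 and 374 of the 1001 windows below them. Only 8 of those windows were lower than HoxB and 68 lower than HoxC. In the H2A.L.2-less list the counts were 229, 354, 236 and 211, with ratios of 1.26, 1.02, 1.04 and 1.1 in the order HoxA to HoxD. Only HoxA had an interval above 1 in that list (1.1 to 1.44, beside 0.957 to 1.26 in HoxD). HoxD was therefore not set apart from HoxB and HoxC there. None of the 8 ratios was lower past 1.5-fold, which 21.2% of windows were in the WT list and 21.6% in the other. Of the windows on the same chromosome, 188 of 1215 were higher than HoxA and 268 of 1481 higher than HoxD in WT.

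From WT round spermatids to WT condensing nucleosomes, position density on the rest of the 4 chromosomes dropped, by a log2 ratio of -0.52 to -0.55, while that of HoxA and HoxD did not. HoxA went from 249 to 250 positions and HoxD from 232 to 253, whereas HoxB went from 490 to 338 and HoxC from 346 to 248. Relative to the rest of the chromosome the log2 change was 0.54 in HoxA and 0.65 in HoxD, but 0.02 in HoxB and 0.04 in HoxC. The HoxA change was higher than that of 1204 of 1215 windows and the HoxD change than that of 1480 of 1481. Only HoxD was higher past 1.5-fold, as were 0.645% of all windows and 0% of the 1001 windows rich in WT small structures. With lists of equal length the 4 values became 0.94, 0.23, 0.17 and 1.01, and HoxA and HoxD lay above every window on their chromosomes. The WT condensing list is the shortest, so this cut removed only the lowest summits of the round spermatid list. Round spermatid summits were low in HoxA and HoxD (0.9 and 0.875 of the rest), and 131 and 133 positions were left. The rise is therefore no independent support. The 2 libraries differ in fragment size selection as well as in stage, and these cannot be told apart.

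Without H2A.L.2 the corresponding change was 1.05 in HoxA (143 to 229 positions), 1.01 in HoxD (127 to 211), 0.48 in HoxB (292 to 354) and 0.28 in HoxC (238 to 236). HoxA and HoxD were higher past 1.5-fold, as were 3.72% of all windows and 14.5% of those rich in WT small structures. HoxA and HoxD were ahead of HoxB and HoxC in both genotypes, though the order within each pair differed. From spermatocytes to round spermatids the changes were small in WT, at 0.11, 0.12, 0.02 and 0.20 for HoxA to HoxD. In H2A.L.2-less cells they were -0.26, -0.18, -0.12 and -0.26. No cluster was higher past 1.5-fold there, as were 0.0248% of windows in WT and 0.843% without H2A.L.2. The H2A.L.2-less values were negative, and 147 of 1215 windows were lower than HoxA and 124 of 621 lower than HoxB. It was 200 of 714 for HoxC and 173 of 1481 for HoxD.

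Small structures exceeded condensing nucleosomes in every cluster. In WT there were 513 small structures for 250 nucleosomes in HoxA, 814 for 338 in HoxB, 574 for 248 in HoxC and 472 for 253 in HoxD. Relative to the rest of the chromosome the log2 ratio was 0.59, 0.57, 0.70 and 0.38, and HoxA and HoxC were higher past 1.5-fold, as were 4.39% of windows. Among the windows rich in WT small structures the median was 0.39, and 860 of 1001 were lower than HoxA, 838 than HoxB, 966 than HoxC and 462 than HoxD, so HoxD was ordinary for such windows. In H2A.L.2-less cells the log2 ratio was 1, 0.69, 0.94 and 0.79, all 4 past 1.5-fold, as were 9.48% of windows, with a median of 0.50 in the rich ones. HoxA lay above all 1215 windows of chromosome 6 in that list. The H2A.L.2-less small-structure list is shorter than the WT one (4114547 against 5371290 positions), and with equal lengths the WT values rose to 0.99, 0.74, 0.90 and 0.59, beside 1.08, 0.72, 0.98 and 0.79 without H2A.L.2.

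**Figure D3:**
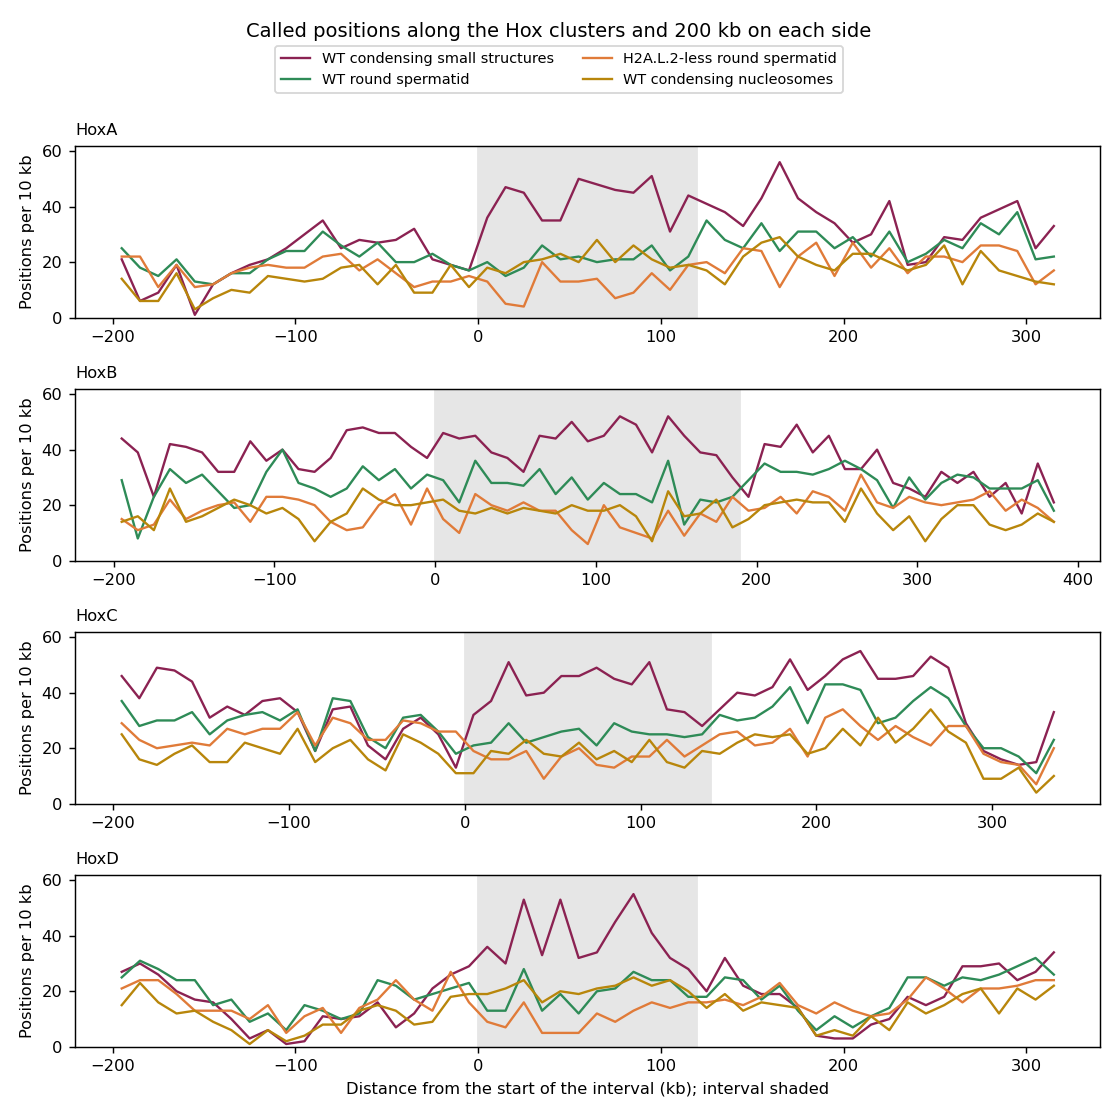
Number of positions per 10 kb (vertical axis) along each Hox cluster, shaded, and 200 kb on each side, against distance from the start of the interval in kb. WT small structures rise inside HoxA and HoxD, staying high beyond the right end of HoxA, and H2A.L.2-less round spermatid positions drop inside both. In HoxB and HoxC the surrounding sequence carries about as many small structures as parts of the cluster.

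HoxA and HoxD differed more from their surroundings than HoxB and HoxC did. Compared with the 500 kb on each side, WT small structures were 1.67 times as dense in HoxA and 1.89 times in HoxD, but 1.15 times in HoxB and 1.27 times in HoxC. Of the 100 flanking stretches of 10 kb around HoxA, 2 held at least as many WT small structures as the median stretch of the cluster, and 6 did so around HoxD. Around HoxB and HoxC it was 31 and 30 of 100. H2A.L.2-less round spermatid positions were 0.597 times as dense in HoxA as in its flanks and 0.553 times in HoxD, beside 0.773 in HoxB and 0.755 in HoxC. The WT round spermatid values were 0.844, 0.906, 0.899 and 0.871 for HoxA to HoxD.

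In round spermatids fewer positions were called without H2A.L.2 in each cluster. HoxA had 249 in WT and 143 without H2A.L.2, with 490 and 292 in HoxB, 346 and 238 in HoxC, and 232 and 127 in HoxD. The lists as a whole differed much less, by a log2 ratio of -0.13 to -0.31 on the rest of the 4 chromosomes. Density ratios of the H2A.L.2-less list were 0.609 (95% interval 0.513 to 0.717) in HoxA, 0.734 (0.652 to 0.823) in HoxB, 0.862 (0.756 to 0.979) in HoxC and 0.547 (0.456 to 0.651) in HoxD. Only 5 of 1215 windows were lower than HoxA and 14 of 1481 lower than HoxD. Both were lower past 1.5-fold, as were 2.43% of windows. In H2A.L.2-less spermatocytes HoxD was lower past 1.5-fold (0.657), as were 15.2% of windows, while HoxA (0.729), HoxB (0.83) and HoxC (0.938) were not.

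Relative to the rest of the chromosome, the log2 ratio of H2A.L.2-less to WT density in round spermatids was -0.67 in HoxA, -0.43 in HoxB, -0.36 in HoxC and -0.66 in HoxD. HoxA and HoxD were lower past 1.5-fold, as were 3.5% of all windows and 13.8% of the windows rich in WT small structures. Among the latter the median was -0.39, and 47 of 1001 were lower than HoxA, 403 than HoxB, 566 than HoxC and 54 than HoxD. Those windows were not matched to each cluster in small structures. Their median small-structure ratio was 1.84, beside 1.49 in HoxB and 2.13 in HoxA. Of all windows on the same chromosome, 9 of 1215 were lower than HoxA and 37 of 621 lower than HoxB. For HoxC it was 116 of 714 and for HoxD 26 of 1481. With lists of equal length the log2 ratios shrank to -0.56, -0.23, -0.19 and -0.43, none of them past 1.5-fold, beside 6.03% of all windows and a median of -0.43 in the rich ones. Richness in small structures and list length thus moved with this difference, and their part in it was not tested. The difference between the genotypes in these clusters is that of 1 library against 1 other, and the change from round to condensing spermatids without H2A.L.2, given above, uses the same H2A.L.2-less round spermatid list.

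The lower count without H2A.L.2 was spread along the clusters. Of the 57 stretches of 10 kb, 56 held fewer round spermatid positions in the H2A.L.2-less list and 1 held the same number. This share was not computed for the rest of the chromosomes, where density was also lower without H2A.L.2 (log2 ratio -0.13 to -0.31). Most stretches in the 200 kb on each side of HoxA, HoxB and HoxC held fewer as well, whereas those around HoxD were more mixed. The count of lower stretches alone therefore does not set HoxA, HoxB or HoxC apart from their surroundings. Stretch by stretch the 2 lists were related (Pearson r 0.65, Spearman rho 0.65 over 57 stretches, which share library and sequence). WT small structures were weakly related to WT round spermatid positions (r 0.38, rho 0.35) and not to those of H2A.L.2-less cells (r -0.14, rho -0.15). In HoxA the stretch with the fewest WT round spermatid positions, chr6:52110001-52120000, held 15 of them, 5 without H2A.L.2, and 47 WT small structures. The HoxA stretch with the most, chr6:52130001-52140000, held 26, 20 and 35. In HoxD the stretch chr2:74540001-74550000 held 12, 5 and 32, and chr2:74510001-74520000, the richest in WT round spermatids, held 28, 16 and 53.

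In HoxB the poorest stretch, chr11:96200001-96210000, held 13 WT and 9 H2A.L.2-less round spermatid positions and 45 WT small structures, and the richest, chr11:96070001-96080000, held 36, 24 and 45. In HoxC the poorest, at the border of the interval (chr15:102740001-102750000), held 21, 19 and 32, and the richest, chr15:102760001-102770000, held 29, 16 and 51. The number of small structures was thus the same in the poorest and richest HoxB stretch and higher in the richest one in HoxC and HoxD. In HoxA it was lower there.

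Long stretches without a called position were found in the H2A.L.2-less round spermatid list. This list held the fewest positions in the clusters (800), and the longest stretches elsewhere on the chromosomes were not measured for comparison. The longest in HoxA spanned 7415 bp between summits at 52121536 and 52128951 on chromosome 6. Within it WT spermatocytes had 16 summits, H2A.L.2-less spermatocytes 8, WT round spermatids 9 and WT condensing nucleosomes 14. The same stretch held 31 small-structure summits in WT and 28 without H2A.L.2, close to the HoxA averages of 4.28 and 3.82 per kb. It was chosen for having no position in the H2A.L.2-less round spermatid list, so positions in other lists are no surprise. In HoxD the longest was 6660 bp, between 74530981 and 74537641 on chromosome 2, and held 13 WT round spermatid summits, 15 WT condensing nucleosomes and 37 WT small structures. In HoxB and HoxC the longest stretches of that list were 5605 and 3350 bp. In the WT round spermatid list they were 2135 bp in HoxA, 2680 bp in HoxB, 2130 bp in HoxC and 3260 bp in HoxD. Such stretches were not limited to round spermatids: H2A.L.2-less spermatocytes had 6080 bp in HoxA, 5190 bp in HoxB and 5760 bp in HoxD, H2A.L.2-less condensing nucleosomes 5490 bp in HoxA, and WT spermatocytes 4430 bp in HoxB.

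At the other stages the genotypes lay closer. In spermatocytes the log2 ratio of H2A.L.2-less to WT density, relative to the rest of the chromosome, was -0.30, -0.14, -0.21 and -0.20 from HoxA to HoxD, and in condensing nucleosomes it was -0.16, 0.03, -0.12 and -0.30. No cluster passed 1.5-fold at either stage, nor for small structures, where the values were 0.24, 0.14, 0.11 and 0.11. Windows lower past 1.5-fold made up 0.0992% at the spermatocyte stage, 0.0744% for condensing nucleosomes and 0.198% for small structures. The small-structure values were positive, and 32 of 1215 windows were higher than HoxA and 52 of 621 higher than HoxB. It was 111 of 714 for HoxC and 251 of 1481 for HoxD. In condensing nucleosomes HoxD was lower than all 1001 windows rich in WT small structures, and it kept its value of -0.30 with equal list lengths. The small-structure values became -0.07, 0.01, -0.03 and -0.11 with equal lengths.

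**Figure D4:**
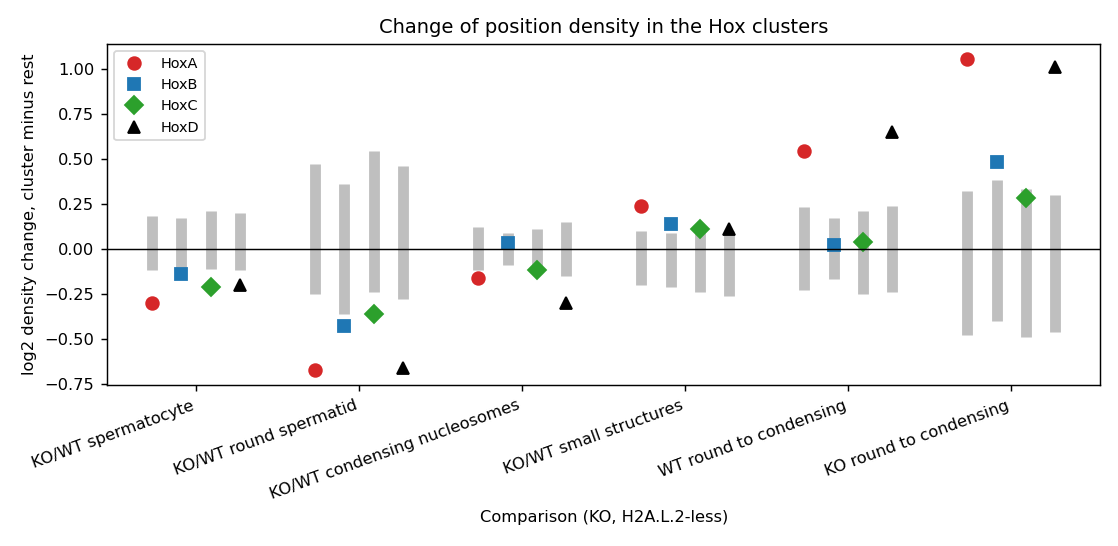
Log2 change of position density in each Hox cluster relative to the rest of its chromosome (vertical axis) for 4 comparisons of H2A.L.2-less (KO) over WT and 2 of condensing nucleosomes over round spermatids. Grey bars show the median of the windows on that chromosome with 1 SD on each side. HoxA and HoxD stand at -0.67 and -0.66 in round spermatids and at 1.05 and 1.01 from round to condensing spermatids without H2A.L.2. Those last 2 comparisons share the H2A.L.2-less round spermatid list.

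Summit values, the deposited coverage at the summit, were compared after division by the median of the list. In the WT round spermatid list the cluster medians were 0.9 of the rest of the chromosome in HoxA, 0.918 in HoxB, 0.95 in HoxC and 0.875 in HoxD. HoxA, HoxB and HoxD were below all 1001 windows rich in WT small structures in this measure, apart from 2 windows tied with HoxB. Over the 4 lists before the condensing stage the ratio ranged from 0.875 to 1.02 and was under 1 in 15 of 16 values, HoxC in H2A.L.2-less round spermatids being the exception. For condensing nucleosomes it was between 1 and 1.02. No value was lower past 1.2-fold, as were 0.029% of window values in the 6 nucleosome lists.

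Small-structure summits were higher in each cluster than on the rest of its chromosome. In WT the ratio was 1.51 in HoxA, 1.16 in HoxB, 1.18 in HoxC and 1.28 in HoxD, and HoxA and HoxD were higher past 1.2-fold, as were 12.9% of windows. Without H2A.L.2 the ratios were 1.47, 1.09, 1.25 and 1.4, with HoxA, HoxC and HoxD past 1.2-fold, as were 9.28% of windows. Windows rich in WT small structures had medians of 1.21 in WT and 1.15 without H2A.L.2, so HoxB in both lists and HoxC in WT lay below such windows' medians. The highest small-structure summits reached 3.04 times the list median in HoxA (52155321), 3.4 in HoxB (96213471), 3.1 in HoxC (102770021) and 2.99 in HoxD (74573511) in WT. The highest WT round spermatid summits reached 1.9, 2.18, 2.27 and 1.8 times the median of their list. The highest condensing nucleosome of HoxA lay at the same base, 52184511, in both genotypes, at 2.24 times the list median in WT and 2.04 times without H2A.L.2.

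The fuzziness score, the authors' measure of how far fragments scatter around a position, had a lower median in the clusters for nucleosomes and a higher one for small structures. All 24 nucleosome values were negative relative to the rest of the chromosome, from -1.80 to -0.32 score units. For HoxA the 95% interval spanned the value of the rest in both round spermatid and both condensing nucleosome lists. It also did for HoxB and HoxC in WT round spermatids, and for HoxB in H2A.L.2-less spermatocytes and round spermatids. HoxD was in this position in H2A.L.2-less condensing nucleosomes. WT spermatocytes gave -1.18 in HoxA, -0.78 in HoxB, -1.21 in HoxC and -1.37 in HoxD, and H2A.L.2-less spermatocytes -1.80, -0.69, -0.74 and -1.59. In WT round spermatids the differences were -0.55, -0.32, -0.56 and -0.72. The median over all windows was itself -0.37 in both WT lists before the condensing stage, and between 52.8% and 59.6% of windows were fuzzier than the cluster in WT round spermatids, so the values there were ordinary. In WT spermatocytes 71.2% to 79.7% of windows were fuzzier. By a threshold of 1 unit 8 of the 24 values were lower, as were 16.9% of window values. Windows rich in WT small structures had the opposite sign, with a median difference of 0.83 in WT spermatocytes, a 10th percentile of 0.13, and a median of 0.84 in WT round spermatids.

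Small structures were fuzzier in the clusters, by 2.42 in HoxA, 0.50 in HoxB, 1.42 in HoxC and 2.24 in HoxD in WT, and by 3.65, 1.34, 1.80 and 3.06 without H2A.L.2. For WT HoxB the 95% interval (-0.11 to 1.13) spanned the value of the rest. All but WT HoxB were past 1 unit, as were 15.7% of windows in WT and 16.7% without H2A.L.2. The windows rich in WT small structures had medians of 1.28 and 1.42, with HoxA and HoxD above them in both lists and HoxB below them in both. In WT 775 of the 1001 windows were fuzzier than HoxB and 205 fuzzier than HoxD, and HoxC was nearest the median.

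**Figure D5:**
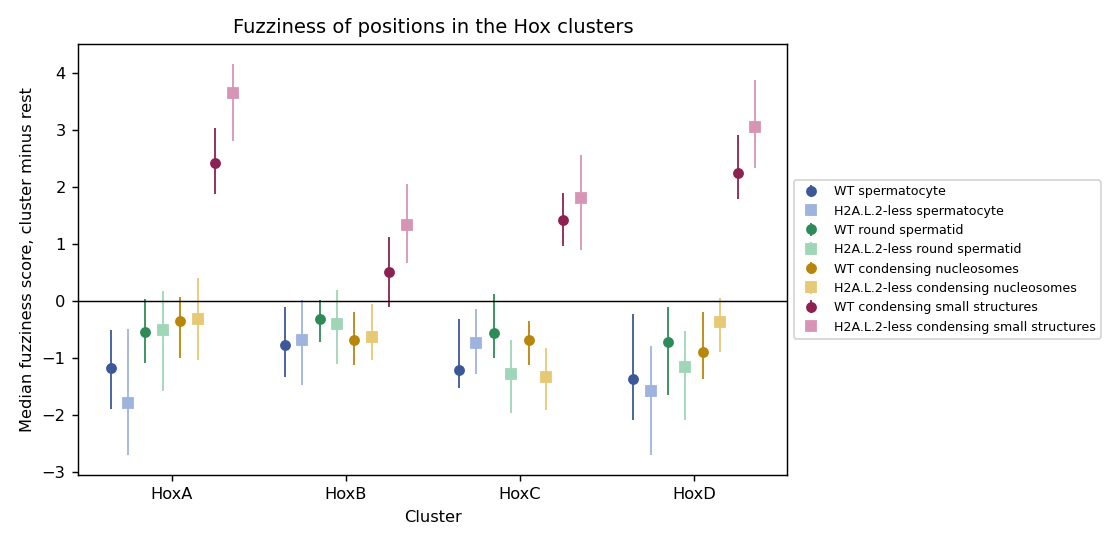
Median fuzziness score in each Hox cluster minus that on the rest of its chromosome (vertical axis, score units), for the 8 lists, with circles for WT, squares for H2A.L.2-less and bars for 95% intervals over positions. Nucleosome lists lie below 0, from -1.80 to -0.32, and small-structure lists above it, from 0.50 to 3.65.

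Positions were next matched between lists, a match being any summit of the second list no more than 40 bp away. Of the WT round spermatid summits in the clusters 33.3% (438 of 1317, 95% Wilson interval 30.8 to 35.8%) were matched without H2A.L.2, against 43.2% on the rest of the 4 chromosomes. Moving the other list by 5000 bp left 12.9% in the clusters and 18.7% outside, so relative to the shifted list the clusters gave 2.58 and the rest 2.31. Within 20 bp the order over the shifted list turned, with 2.85 in the clusters and 2.9 outside, and with equal list lengths the share was 33.8% against 40.5%. The part of density in the lower share was not tested. By cluster the share was 26.9% in HoxA, 33.1% in HoxB, 41.3% in HoxC and 28.4% in HoxD. In spermatocytes it was 44.6% (41.8 to 47.4%) in the clusters and 51.5% outside, and in condensing nucleosomes 30.5% (27.8 to 33.3%) and 30.7%. Small structures were matched more often in the clusters, at 66.9% (65 to 68.8%) against 59%, but over the shifted list the order turned, with 2.02 in the clusters and 2.47 outside.

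Small structures lay on earlier nucleosomes less often in the clusters than elsewhere. Of 2373 WT small structures 30.4% (28.6 to 32.3%) had a WT round spermatid summit within 40 bp, against 42.5% outside, and over the shifted list the values were 1.52 and 1.67. Without H2A.L.2 the share was 14.9% (13.4 to 16.5%) against 24.4%, and 1.16 against 1.28 over the shifted list. The shifted shares were themselves lower in the clusters, at 20% against 25.4% in WT and 12.9% against 19.1% without H2A.L.2. The part of round spermatid density in these lower shares was not tested. Of the WT round spermatid summits in the clusters 19 of 1317 (1.44%, 0.926 to 2.24%) had a match in all 6 nucleosome lists, HoxB holding 10 of them, HoxC 5, HoxA 3 and HoxD 1. Outside the clusters the share was 2.56%.

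The nucleosomes of the clusters kept a repeating distance before the condensing stage. As a measure of this, pairs of summits 350 to 410 bp apart were divided by pairs 250 to 310 bp apart, ranges that were chosen after the data had been seen. In WT spermatocytes there were 276 and 136 such pairs, a ratio of 2.03 (95% interval 1.65 to 2.49), against 1.56 on the rest of the 4 chromosomes. In WT round spermatids the ratio was 1.96 (1.61 to 2.37) against 1.69, and without H2A.L.2 it was 2.13 (1.65 to 2.75) against 1.73 in spermatocytes and 2.44 (1.78 to 3.35) against 1.97 in round spermatids. Only in WT spermatocytes did the interval exclude the value outside the clusters. Condensing nucleosomes gave 1.1 with H2A.L.2 and 1.08 without it, and 0.996 outside for both, and in small structures it was 1.08 and 0.952. The repeat seen at earlier stages was therefore not detectable in the clusters at the condensing stage, as outside them. Pairs share summits, so these intervals are too narrow.

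Among neighbouring summits up to 1000 bp apart, the median distance was longer in the clusters for each nucleosome list. In WT spermatocytes (95% interval 240 to 280 bp) and WT condensing nucleosomes (300 to 350 bp) the interval included the value outside. The median distance in WT spermatocytes was 260 bp in the clusters and 240 bp outside, and in WT round spermatids 250 and 230 bp. Without H2A.L.2 it was 300 against 250 bp and 340 against 290 bp at these stages. Condensing nucleosomes gave 330 and 340 bp in the clusters, in WT and without H2A.L.2, against 310 bp outside in both, although the clusters held more positions per kb than the rest in these lists (1.91 against 1.58 and 1.81 against 1.63). Distances over 1000 bp were left out, and medians without that cut were not computed outside the clusters. A wider spacing of condensing nucleosomes in the clusters is therefore not shown. Small structures were closer in the clusters, at 190 against 200 bp in WT and 198 against 220 bp without H2A.L.2.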

How the data were processed

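MNase-protected DNA of 8 libraries, 1 per group, was sequenced in 3 runs that were merged, to totals between 207000000 and 753000000 reads, as the series text states. Bowtie2 2.2.9, deepTools 2.2.4 and mm9 are named in the submitters' processing notes. The position caller's settings are not given in the sources used here. The deposited positions carry a summit, a summit value, which is a coverage signal, and a fuzziness score, per the file headers. All positions are 140 bp wide. Depth per library is unknown. List medians of summit value ranged from 160 to 488 and first percentiles, a measure of the calling floor, from 96 to 272.

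Density was positions per kb of 10 kb stretches holding a position in any list, over the rest of the chromosome. Comparison windows had at least 80% of such stretches, and at least 20 positions for summit values and fuzziness. Differences were called past 1.5-fold (density), 1.2-fold (summit value) or 1 score unit. Named regions were, per cluster, the 10 kb stretch with the most and the fewest WT round spermatid positions, the longest stretch without a summit and the highest summit of each list. Of the last 2 kinds some are given. The clusters, lists and measures were chosen with earlier results of these data known. Alternatives were equal list lengths, positions at or above the list median, all autosomes as reference, intervals shortened by 10 kb at each end, matching within 20 or 73 bp, and gaps of any length. A planned profile at Hox gene starts was not run, since no mm9 annotation was used. Code was tested on simulated data. Python 3.11.15, numpy 2.4.6, scipy 1.17.1, pandas 2.3.3 and matplotlib 3.10.9 were used.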

Additional observations from a re-analysis of the deposited data

Results flagged for a closer look

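In HoxA and HoxD the genotypes differed in opposite directions in 2 fragment classes, which also differ in stage (round against condensing spermatids). The log2 ratio of H2A.L.2-less to WT density, relative to the rest of the chromosome, was -0.67 in round spermatid nucleosomes and 0.24 in small structures in HoxA, and -0.66 and 0.11 in HoxD. The same opposite signs were seen in HoxB (-0.43 and 0.14) and HoxC (-0.36 and 0.11). Windows rich in WT small structures had medians of -0.39 and 0.11, so opposite directions were not particular to HoxA and HoxD. These differences were not tested, since each cluster value rests on 1 library per genotype. With lists of equal length the small-structure values were -0.07 in HoxA and -0.11 in HoxD, so the opposite directions were no longer seen in HoxA and HoxD. HoxB and HoxC then had 0.01 and -0.03.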

How the results depend on the processing

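No paired analysis was possible because each group has 1 library. Of the 32 values of cluster and list, 10 were past 1.5-fold in density. This number became 17 with positions at or above the list median, where 9 rather than 3 nucleosome values were lower past 1.5-fold, and 12 with equal list lengths. The 2 genotype differences past 1.5-fold, HoxA and HoxD in round spermatids, became 0 with equal list lengths and 1 with positions at or above the list median. Numbers of calls for summit value, fuzziness and stage stayed within 1.5 times of the main number under every alternative run. Matched shares between genotypes within 20 bp were 29.9% (spermatocytes), 23.2% (round spermatids), 19.8% (condensing nucleosomes) and 55.7% for small structures, and within 73 bp 53.9%, 41.1%, 43.2% and 77.3%. With equal list lengths the small-structure share was 70.1%. Median distances of neighbouring summits with equal list lengths were 330 bp in WT spermatocytes, 330 bp in WT round spermatids and 200 bp in WT small structures. With gaps of any length spermatocytes gave 308 bp (WT) and 370 bp (H2A.L.2-less), round spermatids 280 and 420 bp, and condensing nucleosomes 380 and 390 bp. More neighbours counted and fewer positions kept lengthen these distances by construction. For the other changes the cause was not tested. No called value changed direction. Because the depth of each library is unknown, a stretch without a position may be one whose coverage stayed below the calling floor.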
